A study of Mus musculus with 12 samples.

Results

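The 3 libraries described here are the mouse embryonic fibroblasts kept for 96 h in DMSO, the solvent used as vehicle control, and they are 3 of the 12 libraries of the study. The libraries were taken by their column names in the deposited count table, and their counts were scaled by the length column of the same table to TPM, counts per base of gene length scaled to the same total in every library, so that levels can be compared between genes. Mouse embryonic fibroblasts are connective tissue cells grown out of a whole embryo. The submitters took them from E13.5 embryos (wild type, C57BL/6, labelled male) and cultured them in DMEM with 10% fetal bovine serum at 3% oxygen. The other 3 groups of the study received DMSO for 240 h, or 10 µM WM-2474, named as an inactive control compound, for 96 or 240 h. They are not compared here: the values below are levels in cells that received vehicle alone, not differences. Each library is described as a separate biological replicate, and the sources do not say whether the replicates came from separate embryos. A whole-embryo fibroblast culture is not 1 cell type by position or lineage, and bulk RNA gives only the average over the cells in the dish.

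Fibroblasts make the extracellular matrix: they secrete fibrillar collagens, fibronectin and proteoglycans, crosslink and remodel them, and hold them through integrins that link the matrix to actin fibres. Fibroblasts in serum on stiff plastic are known to build contractile actin fibres and to resemble, in part, the myofibroblasts of healing wounds. They carry receptors for platelet-derived growth factor, fibroblast growth factor and transforming growth factor beta, and they signal to immune, vascular and epithelial cells through secreted factors. Col1a1, Thy1 and Pdgfra are commonly used to recognise them.

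The 3 libraries held 16148590, 10961741 and 12917864 counts on genes. Of 26305 gene identifiers, 13005 (49.4%) reached 1 TPM in all 3 libraries, and these are called expressed below. A gene was placed at the floor when it had 3 counts or fewer in each library, which held for 10882 identifiers, and 2456 lay between. The groups share 38 genes of 388 bases or less, for which 3 counts are worth more than 1 TPM. For a gene of 1000 bases the floor was 0.477, 0.707 and 0.589 TPM in replicates 1, 2 and 3, so a gene placed there was not detectable at this depth. Among 20983 protein-coding genes, 12005 (57.2%) were expressed, and this share is the background for the gene groups below. The median level was 4.72 TPM over all protein-coding genes and 27.0 TPM over all expressed genes. Y-linked genes were present, with Eif2s3y at 86.7 ± 4.73 TPM and Ddx3y at 37.9 ± 4.75 TPM (SD, n = 3 here and for every ± below), while Xist, the RNA of the inactive X chromosome, was at 0.0962 ± 0.0320 TPM.

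The label of the cells was checked against its markers first. Col1a1, the alpha 1 chain of type I collagen (gene identifier 12842, chr11:94936224-94953042 of GRCm38), was at 6239, 8084 and 6905 TPM in the 3 libraries and ranked 3rd of all genes. Thy1, a glycolipid-anchored surface glycoprotein (21838, chr9:44043384-44048579), was at 1676, 1547 and 1620 TPM. Pdgfra, the alpha receptor for platelet-derived growth factor (18595, chr5:75151322-75198206), was at 120, 111 and 111 TPM. All 3 were high in every library and far above the floor. Of 30 fibroblast markers, 29 were expressed, beside 57.2% of all protein-coding genes. These markers were chosen with earlier results of these data known, so this count holds for the listed genes only. The highest after Col1a1 were Vim, the intermediate filament protein vimentin, at 4884 ± 64.4 TPM, and Col1a2, the partner chain of Col1a1, at 3429 ± 286 TPM. Other expressed markers lay below the median of all expressed genes (27.0 TPM). These were Cd34 (24.2), Dpt (22.4), Lum (13.7), Fap (4.95), Nt5e (2.47) and Dpp4 (2.07), each value a mean in TPM. The marker that was not expressed was Pi16, a marker of a resting adventitial fibroblast, at 1.63, 0.734 and 0.787 TPM. It reached 1 TPM in replicate 1 alone.

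Most of the 20 most abundant genes were genes of the mitochondrial genome, of translation and glycolysis, of the matrix, and of the cytoskeleton and calcium binding. COX1, a subunit of cytochrome c oxidase encoded in mitochondria, was highest at 9296, 9450 and 9881 TPM. Eef1a1, which carries aminoacyl-tRNA to the ribosome, followed at 7340, 7444 and 7410 TPM, inside the wider range of Col1a1. COX2 was at 6066, 5780 and 5886 TPM. Below these came a run of genes whose libraries overlapped. It held Vim, Actb (beta-actin, 4782 ± 192 TPM), Lgals1 (galectin-1, 4721 ± 318 TPM) and Thbs1 (thrombospondin-1, a matricellular glycoprotein, 4431 ± 261 TPM). COX3 followed at 4391 ± 272 TPM and Acta2, smooth muscle alpha-actin, at 4277 ± 153 TPM. S100a6, a calcium-binding protein, was the least even of the run at 4667, 3501 and 4165 TPM. ATP6, a subunit of ATP synthase, was at 3915 ± 209 TPM and Rplp1, a protein of the ribosomal stalk, at 3621 ± 292 TPM. The list closed with Col1a2, Mir682 (3404 ± 364 TPM), Pkm (pyruvate kinase, 3072 ± 79.0 TPM), CYTB (cytochrome b, 3033 ± 160 TPM), Eef2 (the ribosomal translocation factor, 3021 ± 65.3 TPM), Bgn (the proteoglycan biglycan, 2991 ± 84.2 TPM) and Ldha (lactate dehydrogenase A, 2804 ± 41.6 TPM). Of the 19 neighbouring pairs in this order, 14 had overlapping libraries and 5 did not, so most ranks next to each other cannot be told apart.

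**Figure D1:**
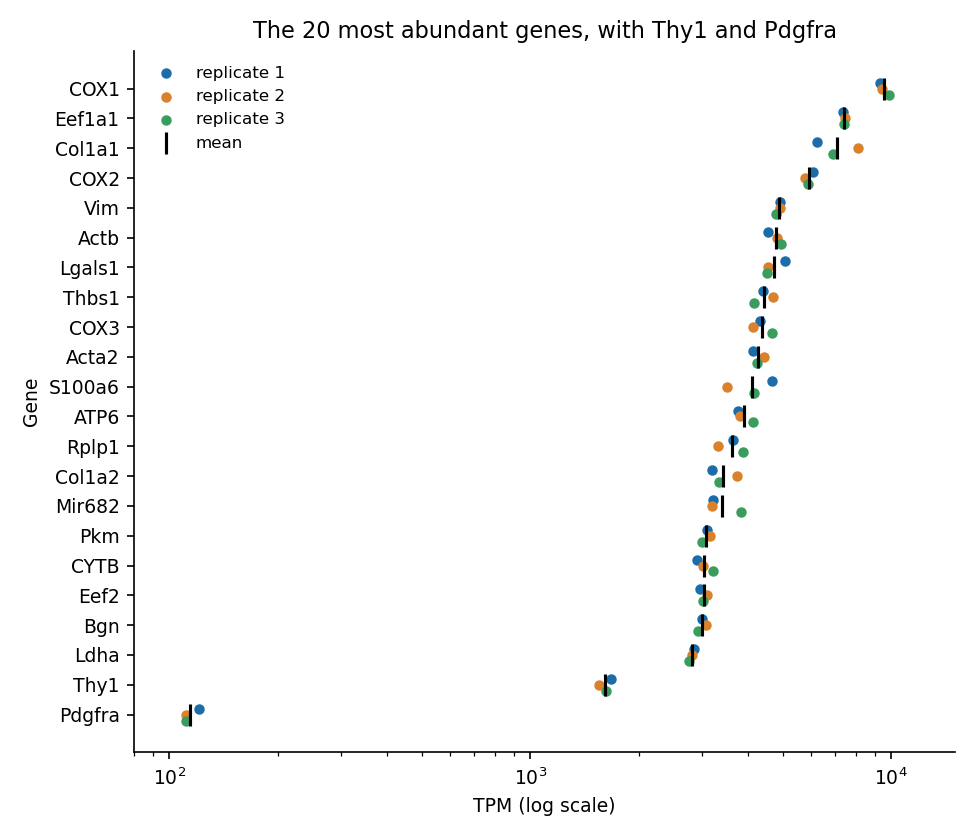
Level in TPM on a log axis of the 20 most abundant genes, with Thy1 and Pdgfra below them, as 1 point per replicate and a bar at the mean of 3. COX1 lies apart from the rest at 9296 to 9881 TPM, the ranges of most neighbours below it overlap, and Pdgfra sits lowest at 111 to 120 TPM.

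Several of these genes share sequence with other genes, and how the deposited counts treated reads that fit more than 1 gene is not given in the sources used here. The share of each gene's 31-base words that also occur in a transcript of another gene was taken from GENCODE M21 as a measure of this. It was 100% for COX2, 99.9% for COX3, 99.5% for ATP6 and 63.9% for COX1, which have pseudogene copies in the nuclear genome. Among nuclear genes it was 75.1% for Rplp1, 51.5% for Eef1a1, 34.7% for Pkm, 23.6% for Actb, 21.2% for Eef2 and 19.6% for Ldha. Among matrix, contractile and marker genes it was uneven: 49.2% for S100a4, 31.9% for Ly6a, 19.9% for Fbn1 and 62.2% for Tagln, but 0.0459% for Col1a1, 0.0719% for Col1a2, 0.187% for Vim, 0.193% for Bgn, 1.26% for Thy1, 1.39% for Acta2, and 0 for Lgals1 and S100a6. Tmsb4x, the actin-binding peptide thymosin beta 4, had 3, 0 and 3 counts, and 0 of its 1367 words are shared. Words were compared with annotated transcripts only, so copies elsewhere in the genome were not seen. Gapdh, the glycolytic enzyme often used as a reference gene, was at 131, 161 and 162 TPM, far below Pkm and Ldha. Of its 4408 words, 1237 (28.1%) also occur in other genes, 330 in number, while its counted length is 1232 bases. Words were taken from all annotated transcripts of a gene, which can hold more bases than the counted length. A share given here can therefore understate the overlap of the counted bases. The part that shared sequence has in these levels was not tested.

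Mir682 is listed among the most abundant genes, and its sequence is shown because it overlaps that of a ribosomal protein gene. The library kit selected polyadenylated RNA, and the entry is a hairpin of 96 bases with 1936, 1296 and 1871 counts. The hairpin matched the coding transcript of Rpl37a, a protein of the large ribosomal subunit, at 95 of 96 bases. The single difference is C48T, counted from 1 at the 5′ end of the hairpin and shown in capitals below (RefSeq hairpin, GRCm38.p6, and GENCODE M21 transcript).
Mir682 hairpin, chr13:75645046-75645141, plus strand: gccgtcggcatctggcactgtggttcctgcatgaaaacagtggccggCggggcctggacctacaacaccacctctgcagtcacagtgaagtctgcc
Rpl37a transcript, coding stretch: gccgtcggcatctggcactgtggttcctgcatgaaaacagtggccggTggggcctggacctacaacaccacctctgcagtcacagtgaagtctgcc
The matched stretch covers bases 182 to 277 of the transcript and crosses from exon 3 to exon 4 of 4, within the coding part at bases 32 to 307. The annotated mature miR-682 lies inside it, at hairpin bases 74 to 94, with its seed in capitals.
miR-682: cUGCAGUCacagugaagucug
Rpl37a itself had 257, 239 and 306 counts and a level of 69.5, 95.7 and 102 TPM, and 28.5% of its words are shared. The counts on Mir682 were several times those on Rpl37a in every library. Which of the loci the reads came from was not tested.

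Among 11 gene groups summed by function, the largest sums were for the machinery of protein synthesis and respiration. The secreted matrix proteins described below were not 1 of these groups. They held 3.50% of all TPM, apart from the collagen chains. Cytosolic ribosomal protein genes held 4.07% of all TPM (86 of 88 expressed), with Rplp1, Rpl8 (2643 ± 46.2 TPM) and Rplp0 (2515 ± 50.1 TPM) at the top. Their median was 169 TPM, and some were far lower, such as Rps29 at 12.5, Rps27 at 11.9 and Rpl39 at 7.23 TPM. Of the words of these low genes, 21.3%, 27.6% and 9.85% are shared with other genes. How reads that fit several genes changed this sum was not tested. The 15 mitochondrially encoded genes held 3.76%. Actin cytoskeleton genes (actins, tropomyosins, myosin chains and actin-binding proteins) held 2.99%, with 29 of 36 expressed. Collagen chains held 1.63% and annexins and S100 proteins 1.51%. Glycolytic enzymes held 1.21% with 13 of 13 expressed, and elongation factors 1.20%. Galectins and metallothioneins held 0.608%, of which most was Lgals1. Cathepsins, led by Ctsd at 1401 ± 12.1 TPM, held 0.344%, tubulins 0.319% and the 2 ferritins, which store iron, 0.309%. The 10 most abundant genes held 5.76 ± 0.0710% of all TPM, the 100 most abundant 21.8 ± 0.101%, and 785, 781 and 772 genes made up 50% in the 3 libraries.

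**Figure D2:**
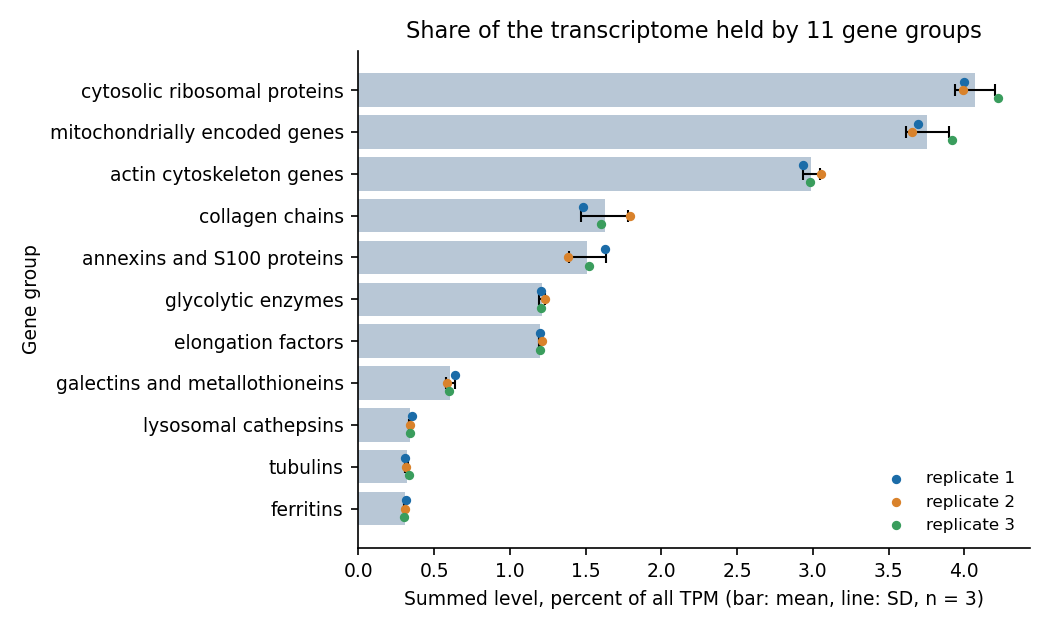
Summed level of 11 gene groups as a percentage of all TPM, with the mean as a bar starting at 0, the SD as a line and each replicate as a point. Ribosomal protein genes (4.07%) and mitochondrially encoded genes (3.76%) lead among the 11, and collagen chains vary more between replicates than the glycolytic enzymes do. The list of secreted matrix proteins (3.50%) is not drawn.

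All 50 secreted matrix proteins listed were expressed, beside 57.2% of all protein-coding genes. Their median was 364 TPM, and together they held 3.50% of all TPM. The list was chosen with earlier results of these data known, so the count holds for the listed genes only. Thbs1 and Bgn led, followed by Fn1, fibronectin, at 2583, 2835 and 2341 TPM. The fibrillar collagens were uneven: Col1a1 was at 7076 ± 935 TPM and Col1a2 at 3429 ± 286 TPM, while Col3a1 was at 875 ± 87.5 TPM, Col5a1 at 831 ± 74.1 TPM and Col5a2 at 788 ± 29.2 TPM. Type I chains stood above all other collagens in each library. Of 44 collagen chain genes, 30 were expressed and 4 were at the floor. Genes that process and crosslink the matrix were also high, among them Serpinh1, the collagen chaperone of the endoplasmic reticulum, at 2056 ± 95.4 TPM, and Lox, which crosslinks collagen and elastin, at 1951 ± 118 TPM. Dcn, the proteoglycan decorin and a common marker of adult fibroblasts, was at only 94.2, 66.8 and 92.7 TPM, under the 2991 TPM of the related Bgn in every library.

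The contractile list joins smooth muscle and myofibroblast genes with general actin-binding genes such as Actn1, Cnn2, Cnn3 and Tagln2. All 18 of its genes were expressed, beside 57.2% of all protein-coding genes. Their median was 574 TPM, and this list too was chosen with earlier results known. Acta2 was at 4146, 4445 and 4239 TPM. Tagln, the actin-binding protein transgelin, was at 2624, 2526 and 2514 TPM, with 62.2% of its words shared with another annotated gene. Cnn2, calponin 2, was at 1304, 1381 and 1386 TPM. The 3 stood apart in every library. Other genes of the list spread widely, down to Mylk at 9.26 ± 0.842 TPM and Synpo2 at 4.19 ± 0.313 TPM. Actg2, enteric smooth muscle actin, was at 264 ± 27.5 TPM, Cnn1, calponin 1, at 194 ± 13.4 TPM and Smtn, smoothelin, at 113 ± 3.97 TPM. Myh11, the smooth muscle myosin heavy chain, was at 25.6 ± 2.91 TPM, Des, desmin, at 28.1 ± 2.84 TPM, and Lmod1, leiomodin, at 69.4 ± 3.28 TPM. All of these lay below Acta2, Tagln and Cnn2 in every library.

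Promoter sequence was examined for the actin cytoskeleton genes because the CArG box, the DNA element bound by serum response factor (Srf), is known from several of them. Srf was at 70.3 ± 1.18 TPM, and its partner Mrtfa (listed as Mkl1 in older annotation) at 71.8 ± 4.73 TPM. RefSeq promoter windows of GRCm38.p6, 250 bases before each start, were matched for 33 of 36 actin cytoskeleton genes, and 8 of these (24.2%) held a CArG box, against 298 of 18458 genes with a window (1.61%). Of 15 contractile genes with a window, 2 (13.3%) held the box. Windows of Actb and Tagln were not available. The box reads the same class of letters on both strands. Shown are 6 of the 8, with the box in capitals and 20 bases on either side.
Cnn2, chr10:79988524-79988573, plus strand: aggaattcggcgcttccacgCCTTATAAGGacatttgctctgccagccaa
Myl9, chr2:156775283-156775332, plus strand: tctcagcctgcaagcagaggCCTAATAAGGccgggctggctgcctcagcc
Actg1, chr11:120348556-120348605, minus strand: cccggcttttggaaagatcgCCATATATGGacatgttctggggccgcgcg
Myl6, chr10:128493030-128493079, minus strand: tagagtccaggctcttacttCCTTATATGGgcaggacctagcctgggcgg
Acta1, chr8:123894819-123894868, minus strand: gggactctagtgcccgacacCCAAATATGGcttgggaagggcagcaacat
Actc1, chr2:114052893-114052942, minus strand: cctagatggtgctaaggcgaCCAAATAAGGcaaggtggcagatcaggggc
The levels of the 8 ran from 0.351 to 1357 TPM. Actb, the highest of the list, could not be searched because it had no window. Acta2, the next highest, was not among the 8, but only exact matches within the 250 bases were counted. Cnn2, Myl9 (a myosin regulatory light chain, 869 ± 36.3 TPM), Actg1 (gamma-actin, 689 ± 64.3 TPM) and Myl6 (469 TPM, a myosin essential light chain) were high, Acta1, skeletal muscle actin, was at 233 ± 24.0 TPM, and Actc1, cardiac actin, at 2.14 ± 0.684 TPM. The other two, Myl3 and Myl7, light chains of heart muscle, were at 0.351 and 0.714 TPM. A match of letters is not evidence of binding, and genes with the box were found at high and at low levels.

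Transcription factor genes, taken as all members of their families, had a median of 6.47 TPM, beside 4.72 TPM over all protein-coding genes. Of 311 members of 26 families, 193 (62.1%) were expressed and 81 (26%) were at the floor, beside 57.2% expressed among all protein-coding genes. The highest was Id3, an inhibitor of basic helix-loop-helix factors without a DNA-binding domain, at 723, 757 and 790 TPM. Atf5 followed at 532, 536 and 525 TPM, then Twist2, described below, at 412 ± 39.3 TPM, and Atf4, a factor of the integrated stress response, at 405, 401 and 402 TPM. The range of Twist2 overlapped that of Atf4. The 2 Atf genes were even between libraries, while Cebpb, a basic leucine zipper factor, ranged over 203, 241 and 260 TPM. The highest members of the other families that respond to growth factors and serum were Jund at 283 ± 30.2 TPM, Klf4 at 221 ± 17.3 TPM, Stat3 at 188 ± 4.80 TPM and the orphan nuclear receptor Nr4a1 at 138 ± 14.9 TPM. Nfix led the nuclear factor I family at 165 ± 5.47 TPM, Sox4 the Sox family at 178 ± 16.2 TPM, and Tead1, a DNA-binding partner of Yap, the Tead family at 124 ± 5.49 TPM. Smad4, the shared mediator of transforming growth factor beta and bone morphogenetic protein signals, was at 94.1 ± 1.70 TPM, Foxk2 at 76.0, 77.7 and 75.3 TPM and Irf3 at 63.4 ± 3.47 TPM. In 8 further families the highest member was under 50 TPM: Meis3 (46.9), Ebf1 (32.8), Gli3 (23.9), Six5 (20.6), Runx2 (17.0), Pou6f1 (12), Dlx2 (11.5) and Gata2 (11.1), each value a mean in TPM. Pax1 at 10.6 ± 3.01 TPM and Lhx9 at 10.2 ± 1.26 TPM led the lowest families.

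**Figure D3:**
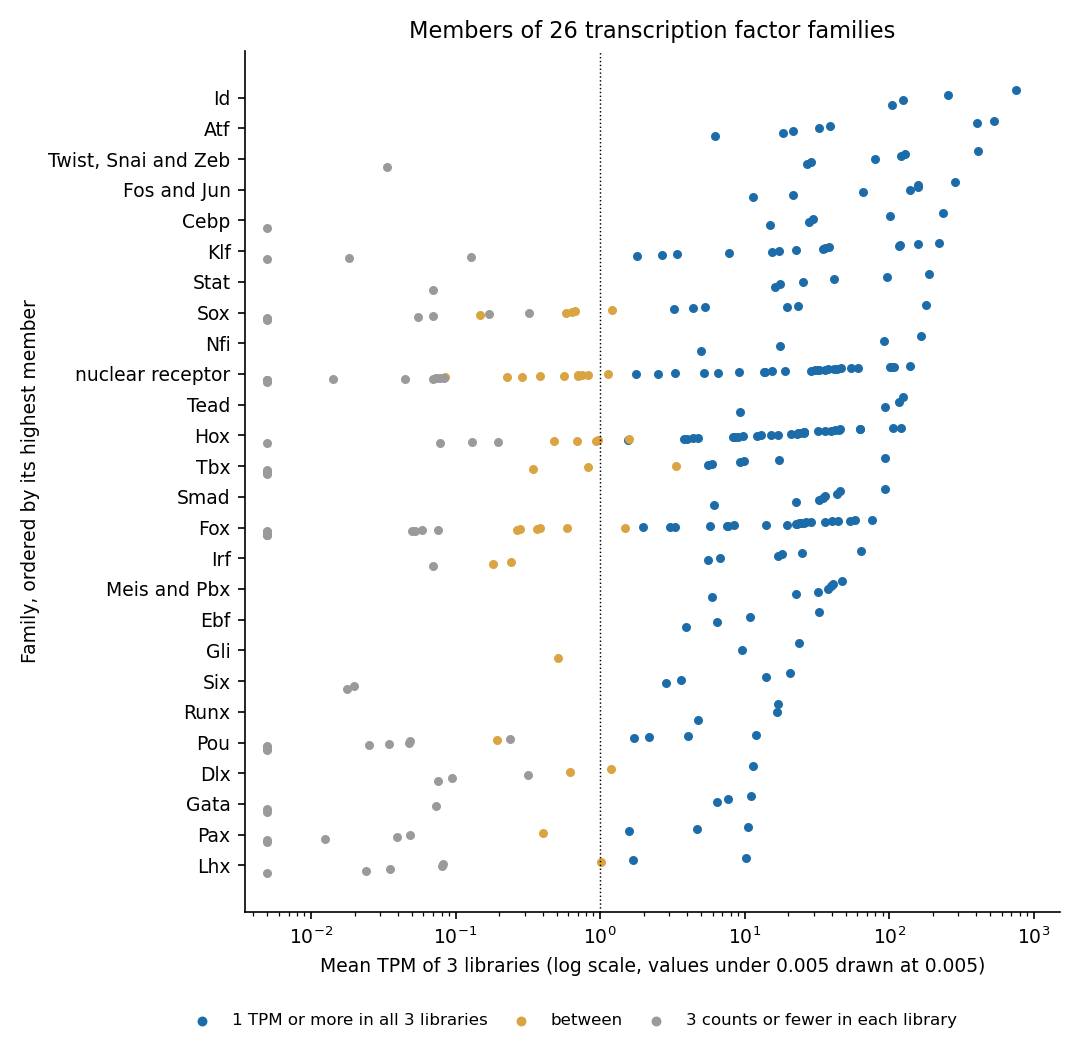
Mean TPM of the members of 26 transcription factor families on a log axis, with families ordered by their highest member and points coloured by whether the gene reached 1 TPM in all 3 libraries, lay at the floor of 3 counts, or between. Id, Atf, Fos and Jun, Tead, Smad, Nfi, Runx, Meis and Pbx, and Ebf have every member at 1 TPM or more, while Pou, Pax and Lhx have most members at the floor.

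Of 34 listed factors of mesenchymal identity, 32 were expressed, beside 57.2% of all protein-coding genes. Their median was 28.9 TPM, and the list was chosen with earlier results known. Twist2 was at 431, 367 and 438 TPM. Prrx2, a paired-related homeobox factor of limb and body wall mesenchyme, was at 316, 346 and 328 TPM, and its relative Prrx1 at 196 ± 12.1 TPM. Hmga2, a chromatin protein of embryonic mesenchyme, was at 339, 296 and 299 TPM, and its range overlapped that of Prrx2. Twist1 was at 129 ± 4.24 TPM and Snai1 at 121 ± 17.4 TPM, both repressors of epithelial genes. Zeb1 and Zeb2 of the same class were lower, at 28.9 ± 2.74 and 27.1 ± 2.01 TPM. The 2 that were not expressed were Tcf21, with 1 count in 1 library, and Heyl, at 0.266 ± 0.203 TPM.

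Genes that mark position in the embryo covered many body regions at once. Of 39 Hox genes, 30 were expressed, and every cluster was represented. The B cluster summed to 317, 359 and 370 TPM with 8 of 10 genes expressed, the C cluster to 311, 307 and 331 TPM with 7 of 9, the A cluster to 154, 181 and 164 TPM with 10 of 11, and the D cluster to 49.6, 44.3 and 48.8 TPM with 5 of 9. The D cluster was the lowest in all 3 libraries. Hoxc6 was highest at 119, 116 and 130 TPM, followed by Hoxb9 at 101, 108 and 109 TPM, both genes of the trunk, and their libraries did not overlap. No member numbered 12 or 13 was expressed: Hoxc12, Hoxc13, Hoxb13 and Hoxd13 were at 0.478 to 0.969 TPM, and Hoxa13 and Hoxd12 were at the floor. Of 35 other positional factors, 23 were expressed. Tbx15, a T-box factor of skin and skeletal mesenchyme, was at 105, 83.3 and 94.5 TPM, Shox2 of the proximal limb at 43.8 ± 7.14 TPM, and En1 at 40.8 ± 1.61 TPM. Factors of regions that do not lie together in the embryo were found in the same dish, such as Emx2 (23.8 ± 3.50 TPM), the limb factors Tbx5 (5.57 TPM, forelimb) and Pitx1 (hindlimb), and Hand2 at 7.76 TPM. Otx2, a factor of the anterior head, was at 0 counts. Pitx1 was at 12.3, 16.4 and 2.81 TPM, with replicate 3 low, and was the protein-coding gene with the largest ratio of highest to lowest library (5.83) among those at 10 TPM or more.

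Master regulators of other lineages were mostly undetected: 24 of 41 were at the floor, beside 33.6% of all protein-coding genes. Another 10 were expressed, beside 57.2%. The 5 highest were regulators of cartilage, bone, tendon and fat, which arise from mesenchyme: Sox9 at 19.5 ± 1.74 TPM, Runx2 at 17.0 ± 1.11 TPM, Scx at 15.6 ± 3.02 TPM, Cebpa at 13.7, 14.1 and 17.1 TPM and Pparg at 9.13 ± 1.09 TPM. The libraries of Sox9 and Runx2 did not overlap, whereas Scx overlapped with both Runx2 and Cebpa. The other 5, Tcf7 (4.51), Sox10 (3.25), Sp7 (2.50), Foxd3 (1.97) and Mitf (1.81), were lower, each value a mean in TPM. Myod1 (muscle), Gata1 (red cell), Pou5f1 (pluripotent cells), Hnf4a (liver) and Neurod1 (neuron) were at the floor.

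Of 277 receptor genes in 9 lists, 177 (63.9%) were expressed, beside 57.2% of all protein-coding genes, and 63 (22.7%) were at the floor. The highest of them was a matrix receptor. Itgb1, the beta chain shared by most collagen and fibronectin integrins, was at 1165, 1088 and 1048 TPM. Itgb5 was at 285, 329 and 307 TPM and Itga5, the alpha chain of the fibronectin receptor, at 264, 271 and 263 TPM. These 3 did not overlap. Of 26 integrin genes, 18 were expressed. The collagen receptor kinase Ddr2 was at 154 ± 3.08 TPM.

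Among 54 receptor tyrosine kinases, 34 were expressed and 13 were at the floor. Axl, a receptor for Gas6, was at 562, 517 and 515 TPM, above Ptk7, a Wnt co-receptor without kinase activity, at 371, 365 and 398 TPM. Ryk, another Wnt co-receptor, was at 250, 241 and 228 TPM and overlapped with Fgfr1 at 236, 230 and 233 TPM. Pdgfrb was at 185, 205 and 199 TPM, above Pdgfra in every library. Kit, the receptor for stem cell factor, had 14, 0 and 11 counts, and Flt3 had none.

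The transforming growth factor beta family was represented by 12 of 14 receptors. Tgfbr2, the type II receptor, was at 157, 167 and 163 TPM, and its type I partner Tgfbr1 at 22.6 ± 1.31 TPM. The accessory receptor Tgfbr3 was at 70.1 ± 0.809 TPM and Bmpr1a, a type I receptor for bone morphogenetic proteins, at 64.0 ± 2.99 TPM. Of 25 receptors of the Wnt, Notch and hedgehog pathways, 21 were expressed. Gas1, a hedgehog co-receptor, was at 208 ± 13.1 TPM, Fzd2, a Wnt receptor, at 168 ± 11.7 TPM, and Fzd1 at 108 ± 12.5 TPM.

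Receptors for inflammatory signals were divided. Of 53 cytokine and tumour necrosis factor family receptors, 37 were expressed. Tnfrsf12a, the receptor for the ligand TWEAK, was at 369, 378 and 334 TPM. Tnfrsf1a, the main receptor for tumour necrosis factor, was at 256, 259 and 266 TPM, and Il6st, the signalling chain shared by the interleukin 6 family, at 187, 247 and 199 TPM. Chemokine receptors were at the opposite end, with 2 of 22 expressed and 16 at the floor. These were the scavenging receptor Ackr3 at 42.3, 56.9 and 48.2 TPM and Cxcr6 at 2.77, 1.12 and 1.24 TPM. Ackr4 followed under 1 TPM at 0.716 ± 0.290. Of 12 Toll-like receptors, 5 were expressed: Tlr4, the receptor for lipopolysaccharide, at 8.20 ± 0.240 TPM, Tlr5 at 5.65 ± 0.397 TPM, Tlr2 at 4.17 ± 0.306 TPM, and Tlr6 and Tlr3 at 2.04 and 2.03 TPM.

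Of 50 G protein-coupled receptors for lipids, peptides and amines, 32 were expressed. F2r, the thrombin receptor, was at 381, 353 and 366 TPM. The sphingosine 1-phosphate receptors S1pr3 and S1pr2 followed at 185 ± 18.8 and 102 ± 2.69 TPM, and the 3 stood apart in every library. Guidance receptors, known from axons and vessels, were expressed in 16 of 21 cases, led by Plxnb2 at 231, 259 and 243 TPM, Unc5b at 124 ± 2.67 TPM and Plxna1 at 121 ± 6.30 TPM, the last 2 overlapping.

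Of 272 ligand genes in 8 lists, 149 (54.8%) were expressed, beside 57.2% of all protein-coding genes, and 76 (27.9%) were at the floor, beside 33.6%. Apart from the cytokine Mif, described below, the highest were secreted factors found around the cell. Fstl1, a secreted follistatin-like glycoprotein, was at 1612, 1556 and 1660 TPM. The matricellular proteins Ccn1 (Cyr61) and Ccn2 (Ctgf), widely used as readouts of Yap and serum response factor activity, were at 913, 887 and 846 TPM and at 813, 786 and 784 TPM. They did not overlap, and both varied little. Ptn, the heparin-binding growth factor pleiotrophin, was at 697, 558 and 732 TPM.

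Growth factors of receptor tyrosine kinases were expressed in 39 of 63 cases. Igf2, the fetal insulin-like growth factor, was at 514, 783 and 681 TPM and varied more than any of the next 3. Gas6 was at 242, 257 and 282 TPM and Csf1, the macrophage growth factor, at 261, 244 and 227 TPM, and these 2 overlapped. Igf1, the postnatal relative of Igf2, was at 2.49 ± 0.431 TPM. Of 31 ligands of the transforming growth factor beta family, 18 were expressed, led by Inhba, the activin A subunit, at 158 ± 22.1 TPM, Tgfb3 at 128 ± 13.4 TPM and Tgfb1 at 65.0 ± 4.65 TPM. The 3 highest secreted antagonists were above all of these ligands in every library: after Fstl1 came Grem1, which binds bone morphogenetic proteins, at 472, 376 and 383 TPM and Fst, follistatin, which binds activins, at 199 ± 9.81 TPM. Bmp4 itself was at 34.8 ± 10.7 TPM.

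Wnt, Notch and hedgehog ligands were fewer, with 13 of 31 expressed and 12 at the floor. Wnt5a, a ligand of the non-canonical pathway, was at 79.8, 66.9 and 72.0 TPM, above Rspo2 at 28.2 ± 0.315 TPM and Wnt16 at 27.0 ± 4.81 TPM. Shh was at the floor. Ephrins, semaphorins, slits and netrins were expressed in 30 of 35 cases, the highest share of the ligand lists, with Slit3 at 261 ± 4.25 TPM, Slit2 at 115 ± 2.67 TPM and Efnb2 at 61.4 ± 1.31 TPM.

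Cytokines and chemokines had the smallest shares of expressed genes among the ligand lists. Of 40 cytokines, 12 were expressed and 25 were at the floor. Mif, macrophage migration inhibitory factor, was at 807, 948 and 1038 TPM and accounted for most of their summed level. Clcf1, a ligand of the interleukin 6 family, was at 64.8 ± 5.54 TPM and Tnfsf12, which encodes TWEAK, at 16.6 ± 1.29 TPM. Il6 was at 8.49, 9.75 and 6.86 TPM. Il1a, Il1b, Tnf, Ifng, Il2, Il13 and Il17a had 0 counts in all 3 libraries. Of 34 chemokines, 11 were expressed, led by Cxcl12, a homing signal for blood precursors, at 166, 200 and 196 TPM, Cxcl14 at 121, 146 and 102 TPM and Ccl2, which attracts monocytes, at 92.6, 81.8 and 94.2 TPM.

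Promoters of cytokine genes and of abundant genes are shown because the letters of a TATA box were found in members of each. The letters TATAAA were searched on the strand of the gene, starting 40 to 20 bases before the start, in the same RefSeq windows. They were found for 8 of 32 cytokines (25%), 5 of 25 chemokines and 4 of 19 annexin and S100 genes (21.1%), against 547 of 18458 genes (2.96%). They were also found for 3 of 21 fibroblast markers (14.3%), 2 of 11 other growth factors and matricellular ligands (18.2%) and 6.45% of the 100 most abundant genes with a window. Of 9948 expressed genes with a window 135 (1.36%) held them, and of 8510 genes not expressed 412 (4.84%). On the opposite strand in the same place the share was 0.758% of all genes. Below are 8 stretches from 50 bases before the start up to the start, 4 of abundant genes and 4 of cytokines, with the match in capitals.
Vim, chr2:13574261-13574310, plus strand: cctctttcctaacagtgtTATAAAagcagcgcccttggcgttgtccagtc
S100a4, chr3:90603720-90603769, plus strand: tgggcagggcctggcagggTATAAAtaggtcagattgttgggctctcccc
Anxa1, chr19:20390672-20390721, minus strand: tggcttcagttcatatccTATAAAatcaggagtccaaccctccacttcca
Postn, chr3:54361057-54361106, plus strand: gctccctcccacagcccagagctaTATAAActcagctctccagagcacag
Il33, chr19:29945740-29945789, plus strand: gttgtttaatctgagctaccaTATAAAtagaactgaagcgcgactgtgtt
Tnf, chr17:35202008-35202057, minus strand: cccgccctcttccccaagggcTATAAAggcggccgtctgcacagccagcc
Il1b, chr2:129371140-129371189, minus strand: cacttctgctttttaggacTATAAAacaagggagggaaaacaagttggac
Ifng, chr10:118440996-118441045, plus strand: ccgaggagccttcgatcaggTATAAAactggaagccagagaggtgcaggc
Vim, S100a4 (2491 ± 348 TPM), Anxa1 (1484 ± 135 TPM) and Postn, the matricellular protein periostin (1319 ± 115 TPM), were among the 100 most abundant genes. Il33, a cytokine released from damaged cells, was at 1.28 ± 0.209 TPM and Tnf, Il1b and Ifng were at 0. Genes with the letters in this window therefore spanned the range from no counts to the level of Vim, and no reading of the promoters' activity can be taken from the match.

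Ligands were then set beside their known receptors in 96 pairs, formed by 85 ligands and 75 receptors. Of all ligand and receptor genes listed above, 54.8% and 63.9% were expressed. The pairs are a chosen list in which some genes recur, so the counts hold for these pairs only. Both genes were expressed in 61 pairs, the ligand alone in 16, the receptor alone in 13 and neither in 6. In 35 pairs both were at 10 TPM or more, among them Gas6 with Axl, Tgfb3 with Tgfbr2, Igf2 with Igf2r (152 ± 4.06 TPM), Pdgfa (79.4 ± 6.47 TPM) with Pdgfra, and Col1a1 with Ddr2. The platelet-derived growth factors were split: Pdgfa, Pdgfc (59.6 ± 0.714 TPM) and Pdgfd (40.9 ± 3.71 TPM) were expressed, while Pdgfb was at 0.772 ± 0.112 TPM although its receptor was at 196 TPM.

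In 9 pairs the ligand was at 10 TPM or more and the receptor was at the floor. Of these, 6 were chemokines: Cxcl12 with Cxcr4 (0, 0 and 2 counts), although its other listed receptor Ackr3 was expressed at 49.1 ± 7.36 TPM, Ccl2 and Ccl7 (75.3 ± 10.7 TPM) with Ccr2 (0 counts), Cxcl5 (43.5 ± 9.44 TPM) and Cxcl1 (14.5 ± 1.98 TPM) with Cxcr2 (0 counts), and Cx3cl1 (11.8 ± 0.626 TPM) with Cx3cr1 (1, 0 and 1 counts). Among the others were Flt3l (11.5 ± 2.93 TPM) with Flt3 and Gdf15 (19.3 ± 3.91 TPM) with Gfral (0 counts). The receptors in these pairs are known from leukocytes and neurons. The opposite arrangement, a receptor at 10 TPM or more and a ligand at the floor, held in 5 pairs, among them Tnfrsf1a and Tnf, Osmr (91.3 ± 4.42 TPM) and Osm (0 counts), and Il1r1 (44.4 ± 1.72 TPM) and Il1a. Csf1 at 244 ± 17.1 TPM stood against Csf1r at 1.62 ± 0.181 TPM, and the receptor Il1rl1 at 126 ± 19.1 TPM against its ligand Il33. These are RNA levels, and the amount of protein at the surface or in the medium was not measured.

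**Figure D4:**
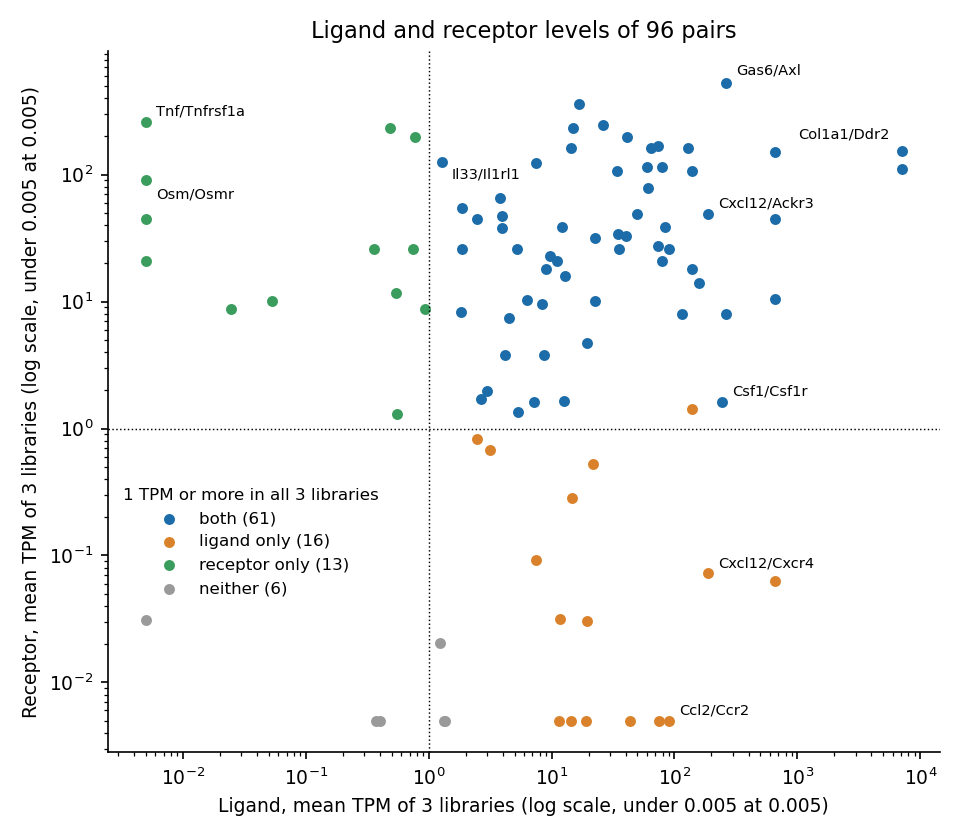
Mean TPM of the ligand against mean TPM of the receptor for 96 pairs, both on log axes, with values under 0.005 drawn at 0.005, dotted lines at 1 TPM and colours for which member was expressed. Of the 16 pairs with the ligand alone, all but Vegfa with Kdr (a mean of 1.41 TPM, under 1 TPM in replicate 2) lie below the horizontal line, with Ccl2 and Ccr2 at the lower edge, and the 13 with the receptor alone lie to the left.

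Markers of other lineages were used to ask which other cells the cultures could hold. Of 219 markers in 20 lists, 54 (24.7%) were expressed, 53 lay between and 112 (51.1%) were at the floor, beside 7055 of 20983 protein-coding genes (33.6%). In bulk RNA, fewer cells of a type and less RNA per cell cannot be told apart, so a low marker is given as a level only. Blood, liver and germ cell markers were absent at this depth: 10 of 11 red cell, 9 of 10 T lineage, 7 of 8 liver and 10 of 12 pluripotent and germ cell markers were at the floor, and none was expressed. Their lists summed to 0.723 to 1.33, 0.666 to 1.26, 0.0229 to 0.270 and 0.758 to 1.31 TPM in the 3 libraries. The globins Hba-a1 and Hbb-bs, the liver proteins Alb, Afp and Ttr, and the T cell receptor subunits Cd3d and Cd3e had 0 counts. In the B lineage list, 7 of 13 were at the floor and none was expressed, with Vpreb1 and Vpreb3, surrogate light chain genes of B cell precursors, highest at 1.23 ± 0.537 and 1.18 ± 0.809 TPM.

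Markers of leukocytes and vessels were low rather than absent. Of 10 pan-leukocyte genes, Coro1a, an actin regulator, was expressed at 1.77 ± 0.372 TPM, and Ptprc, which encodes CD45, was at the floor. Among 14 macrophage markers, Cd68, a lysosomal protein, was at 7.42, 7.94 and 9.15 TPM, Lyz2, lysozyme, at 6.17, 6.02 and 7.05 TPM, and Csf1r at 1.68, 1.76 and 1.42 TPM. The other 11 were not expressed, and 9, among them Adgre1, Spi1 and the complement genes C1qa, C1qb and C1qc, were at the floor. Of 16 endothelial markers, Egfl7 was at 8.10 ± 0.468 TPM and Emcn at 2.77 ± 1.01 TPM, while Pecam1 and Cldn5 were at the floor, the latter at 0 counts. The list summed to 15.2 to 17.5 TPM.

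Among epithelial markers, 5 of 20 were expressed and 10 were at the floor. The keratins Krt19 and Krt7 were at 46.5 to 48.7 and 11.1 to 13.1 TPM, with Krt18 at 4.68 ± 1.48, Esrp2 at 2.05 ± 0.333 and Krt8 at 1.55 ± 0.639 TPM. The defining surface genes Epcam and Cdh1 were at the floor at 0.0896 and 0.0446 TPM. The mesothelium, the lining of the body cavities, carries keratins as well. Its marker Msln, mesothelin, was at 29.5, 22.9 and 18.1 TPM, Upk1b at 9.44, 2.93 and 6.32 TPM and Bnc1 at 3.92, 3.38 and 3.07 TPM. Upk3b was at 12.2, 0.231 and 7.71 TPM. The mesothelial list summed to 30.3 to 59.5 TPM, lowest in replicate 2, and the epithelial list to 69.1 to 74.8 TPM.

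Neuronal and neural crest markers gave a mixed picture. Tubb3, a tubulin of neurons, was at 88.0, 107 and 103 TPM and Stmn2, stathmin 2, at 49.8, 38.0 and 29.2 TPM, and Map2 was at 1.87 ± 0.526 TPM. The other 10 of 13 neuronal genes were not expressed, with 8 at the floor, and Dcx, Rbfox3 and Neurog2 had 0 counts. Glia and neural crest markers were low but present in 6 of 10 cases, from Erbb3 at 1.65 ± 0.325 to Mbp, myelin basic protein, at 4.33 ± 0.591 TPM, with Sox10 at 2.46, 2.95 and 4.34 TPM, S100b at 2.41 ± 0.401 and Foxd3 at 1.97 ± 0.809 TPM. All 6 were above 1 TPM in each library. Of 6 melanocyte markers Mitf was expressed, at 1.81 ± 0.335 TPM, Pmel was at 1.03 ± 0.154 TPM, and Tyr and Tyrp1 had 0 counts.

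Skeletal muscle markers were led by Acta1 at 224, 261 and 216 TPM. Tnnt3 followed at 2.25 ± 0.611 TPM and Pax3 at 1.60 ± 0.185 TPM, and Myod1, Myf5, Pax7 and Ckm were among the 6 of 12 at the floor. Acta1 shares 4.11% of its words with other genes, mostly with Actb. Cardiac markers were expressed in 4 of 9 cases: Tnni3 at 9.66 ± 0.809, Tnnt2 at 5.29 ± 0.615, Nppb at 4.43 ± 1.38 and Actc1 at 2.14 TPM. Gata4, Nkx2-5, Myh6 and Myh7 were at the floor.

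Markers of fat, bone, cartilage and tendon, lineages that arise from mesenchyme, were expressed in 17 of 39 cases, beside 57.2% of all protein-coding genes. For fat, Lpl, lipoprotein lipase, was at 29.1 ± 2.85, Cebpa at 15, Pparg at 9.13, Fabp4 at 7.55 ± 0.649 and Plin4 at 5.81 ± 0.934 TPM. The products of mature fat cells, Adipoq, Lep and Retn, were at the floor. For bone, Spp1, osteopontin, was at 432, 481 and 291 TPM, Runx2 at 17.0 and Sp7 at 2.58, 2.17 and 2.75 TPM, while Bglap, Ibsp and Sost were at the floor. For cartilage, Col2a1 was at 39.8, 86.9 and 75.5 TPM, Sox9 at 19.5, Col10a1 at 2.98 ± 1.48, Comp at 2.58 ± 0.382 and Col11a2 at 1.43 ± 0.116 TPM, with Matn1 at 0 counts. For tendon, Fmod was at 34.6, 61.2 and 43.4 TPM, Tnmd, tenomodulin, at 37.6 ± 3.00, Scx at 15.6 and Mkx at 1.63 ± 0.396 TPM. The regulators Pparg, Runx2, Sox9 and Scx were thus expressed in every library, while several late products of fat and bone were not detectable. Pericyte and vascular smooth muscle markers were expressed in 6 of 9 cases, with Mcam at 92.8 ± 0.895, Cspg4 at 90.9 ± 5.47, Des at 28.1, Myh11 at 25.6, Notch3 at 12.9 ± 1.47 and Kcnj8 at 1.96 ± 0.366 TPM. Rgs5, a common pericyte gene, was at 1.02 ± 0.338 TPM and Higd1b at 0.

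**Figure D5:**
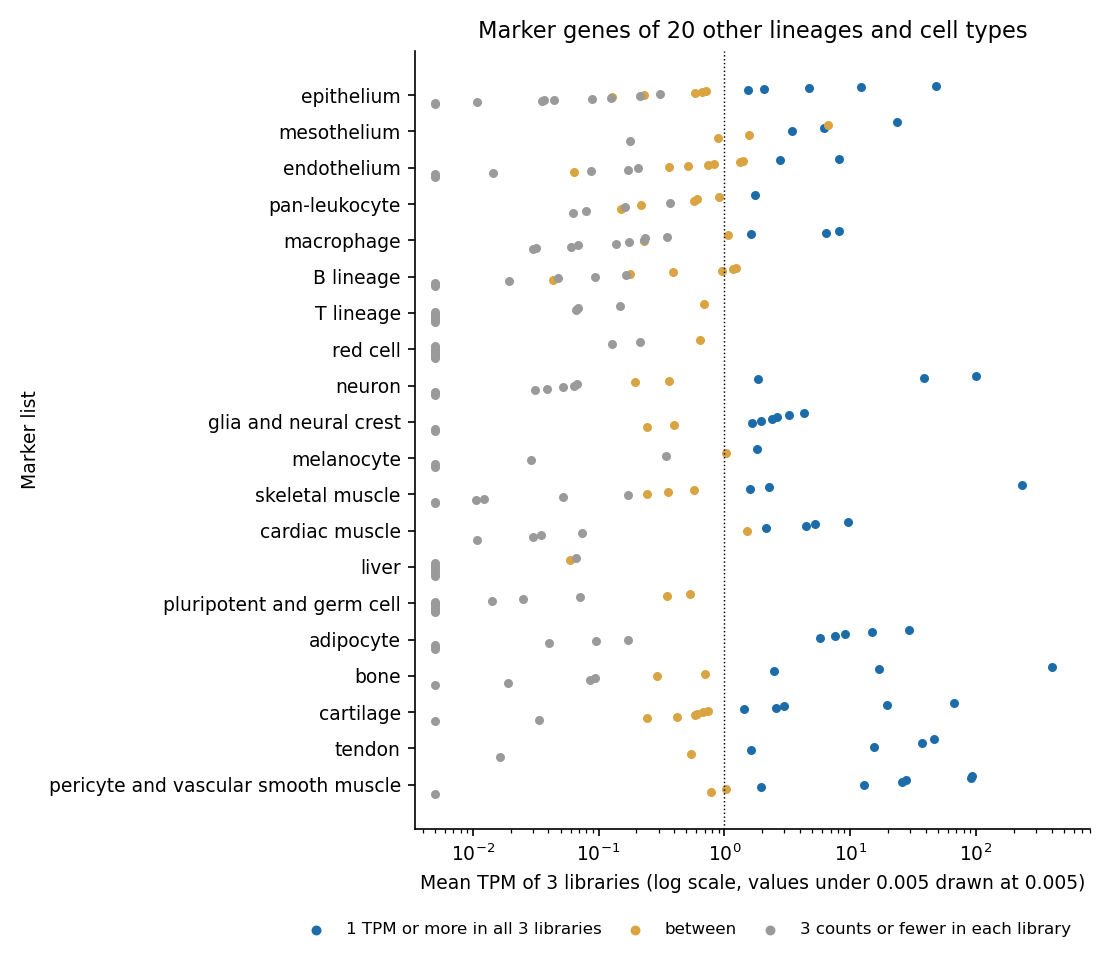
Mean TPM of 219 marker genes in 20 lists of other lineages on a log axis, coloured by whether the gene reached 1 TPM in all 3 libraries, lay at the floor of 3 counts, or between. Red cell, T lineage, liver and germ cell lists have no gene at 1 TPM or more in all libraries, and the highest points are Spp1 (402 TPM) in bone and Acta1 (233 TPM) in skeletal muscle.

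The 3 libraries gave much the same levels, with a few exceptions. Between libraries, the median coefficient of variation was 13.4% for the 3396 genes at 1 to 10 TPM, 5.96% for 7496 genes at 10 to 100 TPM, and 4.41% for 2009 genes at 100 to 1000 TPM. Of 9609 genes with a mean of 10 TPM or more, 98.0% had a ratio of highest to lowest library under 1.5, and 55 had a ratio over 2. Of those 55, 38 were shorter than 200 bases, and 14 were protein coding. The 5 with the largest ratios were the short RNAs Snora34, Mir3060, Snora61 and Snord22, and Pitx1. The next among protein-coding genes were Il1rn, the interleukin 1 receptor antagonist, at 30.9, 48.2 and 12.5 TPM, and Fosb at 6.07, 6.30 and 21.8 TPM. Fos, an immediate early gene, was at 37.2, 56.6 and 105 TPM, highest in replicate 3 as Fosb was, while Jun was even at 157 ± 4.27 TPM. Foxd1 (10.99, 30.4 and 26.8 TPM), Dock11 (6.30, 22.0 and 21.1 TPM), Igfbp2 (84.8, 209 and 222 TPM) and Col2a1 were each low in replicate 1. The cause of these differences was not tested, and with 3 libraries they are reported as values.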

How the data were processed

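RNA from mouse embryonic fibroblasts was extracted with RNeasy columns and made into stranded, poly(A)-selected libraries with a TruSeq kit, per the labels' protocols. The authors deposited raw read counts per gene, with a gene length column, made with featureCounts on mm10 per the submitters' processing notes. The aligner, versions, annotation, strand setting and treatment of reads fitting several genes are not given in the sources used here. If such reads were left out, genes with near-identical copies would be understated.

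The 3 DMSO 96 h columns were matched to samples by name. The table has 27179 entries. Those lacking a gene identifier (874, with 0.555%, 0.587% and 0.633% of counts) were left out, and TPM were computed over the other 26305. Identifiers were named by Entrez number from the RefSeq table of GRCm38.p6 (25275 of 26305 matched). A gene was expressed at 1 TPM or more in all 3 libraries and at the floor with 3 counts or fewer in each, a limit for counting error only. No test was made, because levels of a single group are described. Errors are SDs over 3 libraries. Replicates 2 and 3 differed by 2.83 times the variance of sampling noise. Replicate 1 differed more, by 4.97 times from replicate 2 and 5.04 times from replicate 3. The TPM calculation was tested on simulated data.

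Named genes are the 20 most abundant, Col1a1, Thy1 and Pdgfra, the 3 highest of each identity, transcription factor, receptor and ligand list, the highest of each factor family, the 2 highest and all expressed of each lineage list, ligands at 10 TPM or more with a receptor at the floor, and the 5 genes with the largest ratio between libraries. A few genes that this rule names are not reported here. Genes named outside the rule, the absent markers among them, were chosen after their values were seen. The group and the lists were chosen with earlier results of these data known. Python 3.11.15, pandas 2.3.3 and matplotlib 3.10.9 were used.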

Additional observations from a re-analysis of the deposited data

How the results depend on the processing

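Of 69 alternative values of 8 summary results (counts of genes, factors, receptors, ligands, pairs and lineage markers, and the share of the 10 most abundant genes), 63 stayed within 1.5 times the reported count or 1 SD of the reported share, and 6 moved. The share of the 10 most abundant genes was 6.43% without length scaling (CPM), 5.93% with 150 bases subtracted from each length, 5.26% with mitochondrially encoded and ribosomal protein genes left out, and 5.59% with entries without an identifier kept. Of 219 lineage markers, 50 were at the floor when it meant 0 counts and 73 when it meant under 0.1 TPM, against 112. Leaving out each library in turn moved none of the 8 results past these limits. Without length scaling, 11 of the 20 most abundant genes were still among the first 20, and Col1a1, Thbs1 and Fn1 led. No paired analysis was possible because no groups were compared. Depth limits the absent genes: a count of 3 was worth 0.186 to 0.274 CPM.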

Other observations

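A few abundant long noncoding RNAs are named here after their values were seen. H19, an imprinted RNA of the fetal growth locus on chromosome 7, was at 1970, 2484 and 2326 TPM, rank 33 of all genes, beside its neighbour Igf2 at 514, 783 and 681 TPM. Both were lowest in replicate 1 and highest in replicate 2. On chromosome 12, Rian and Meg3 were at 487 ± 18.5 and 215 ± 5.66 TPM (SD, n = 3). The nuclear RNAs Neat1 and Malat1 were at 498 ± 7.21 and 205 ± 38.5 TPM. Long noncoding RNAs as a class held 0.778% of all TPM, with 353 of 2077 expressed.

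Crabp1, a cellular retinoic acid binding protein known from embryonic mesenchyme, ranked 31 at 2481, 2132 and 2440 TPM. In annotated transcripts of other genes, 0 of its 31-base words occur. Entries annotated as pseudogenes or transcribed pseudogenes held 2.13% and 1.30% of all TPM, led by Gm9794 at 1829 ± 42.0 TPM and Ubb-ps at 1721 ± 48.4 TPM. Ubb-ps stood above its parent gene Ubb, at 664 ± 15.3 TPM, of whose words 50.3% are shared. How the reads of these copies were divided was not tested.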
